A study of Mus musculus with 4 samples.

Results

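Molecular chaperones bind unfolded or newly made proteins and help them fold, and many are known as heat shock proteins because heat and other protein-damaging stress raise their genes through the transcription factor HSF1. HSP70 proteins hold short exposed stretches of a chain, J-domain proteins bring clients and trigger ATP hydrolysis, and BAG and HSP110 proteins release the nucleotide. HSP90 finishes the folding of kinases, steroid receptors and other signalling proteins, the CCT ring folds actin and tubulin in the cytosol, and HSP60 with its lid HSP10 folds proteins in the mitochondrial matrix. The set described here holds 36 genes of these cytosolic and mitochondrial machines, chosen by name and role and not by a threshold on their values. The choice was made with earlier results of these data known. Of the 36, 33 had a probe set (a group of array probes for 1 transcript) carrying that single gene symbol, among 18194 genes in all, and all 33 passed the filter on dim signals and were tested among 12253 genes. Hsp90ab1, Ptges3 and Hsf1 had no such probe set in the annotation table used and were not analysed here.

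CD4+ T cells came from the lamina propria of the large intestine, the connective tissue under the gut epithelium, of mice of mixed 129/B6 background heterozygous for a GFP knock-in at the GPR15 locus. GPR15 is a chemoattractant receptor of T cells that home to the large intestine, and GFP marked the cells that expressed it. GFP-positive cells were compared with GFP-negative cells, with 2 arrays each, numbered replicate 1 and replicate 2. All samples carried the knock-in allele, all cells went through the same collagenase digestion and sort, and the labels give neither the age nor the number of mice behind a sample. The labels do not say whether the replicates came from separate animals, so a p-value here covers the spread among these 4 samples and no more, and the number of arrays limits the precision. In RNA pooled from many cells, a lower share of cells expressing a gene and less RNA per cell cannot be told apart.

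Gpr15 had signals of 619 and 729 on the GFP-positive arrays, against 146 and 162 on the GFP-negative arrays. Xist, an RNA made only from an inactive X, reached 4313 (GFP-positive) and 4172 (GFP-negative) for replicate 1, with 112 (GFP-positive) and 55.1 (GFP-negative) for replicate 2. Eif2s3y, a Y-linked gene, had signals of 5.08 and 2177 on the GFP-positive arrays, against 18.9 and 2329 on the GFP-negative arrays. The 2 replicates of a group thus held cells of different sex, and the spread between them is not technical alone. The added control RNA Dap split the same way, with signals of 53.3 and 1285 on the GFP-positive arrays, against 8.59 and 1581 on the GFP-negative arrays, and the main differences are also given within a number. Of 9 genes marking CD4 T cells 8 were measured and all 8 were above the filter, with Cd3e at 5208 and 4717 on the GFP-positive arrays, against 5443 and 5615 on the GFP-negative arrays. No gene outside the chaperones is used to draw a result below, except where its values are set beside one.

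The regulatory sequence shown first is that between the divergent starts of Hspd1, encoding HSP60, and Hspe1, encoding HSP10, because these neighbours had 2 of the larger differences. HSF1 is known to bind heat shock elements, inverted repeats of the unit GAA. Sequences were taken from RefSeq promoter windows (250 bases before to 50 after a start, build GRCm38.p6), which matched 29 of the 36 members. The stretches run 5′ to 3′, and capitals mark inverted pairs of the unit, GAANNTTC or TTCNNGAA, each of which reads the same on both strands. The Hspd1 to Hspe1 stretch is chr1:55087933-55088147 on the plus strand, with Hspe1 starting at its right end and an Hspd1 transcript starting at its left end and running the other way.
Hspd1-Hspe1: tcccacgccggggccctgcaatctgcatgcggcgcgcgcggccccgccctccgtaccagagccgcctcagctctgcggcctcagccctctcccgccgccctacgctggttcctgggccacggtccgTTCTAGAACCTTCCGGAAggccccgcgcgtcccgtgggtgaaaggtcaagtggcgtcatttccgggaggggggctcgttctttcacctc

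For comparison, 150 bases before the starts of 4 other members are shown. Dnajb6 (chr5:29735748-29735897, plus strand) holds an element of the same kind, Hspa1a (chr17:34972157-34972306, minus strand) and Hspa1b (chr17:34959239-34959388, minus strand) are near-identical copies, and Hspb1 (chr5:135887769-135887918, plus strand) is the member with the largest positive difference.
Dnajb6: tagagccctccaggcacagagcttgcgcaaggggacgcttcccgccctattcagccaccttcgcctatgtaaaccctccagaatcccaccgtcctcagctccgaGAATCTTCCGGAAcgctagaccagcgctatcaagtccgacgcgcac
Hspa1a: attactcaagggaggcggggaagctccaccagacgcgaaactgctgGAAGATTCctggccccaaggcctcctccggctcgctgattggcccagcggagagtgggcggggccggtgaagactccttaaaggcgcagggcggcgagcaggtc
Hspa1b: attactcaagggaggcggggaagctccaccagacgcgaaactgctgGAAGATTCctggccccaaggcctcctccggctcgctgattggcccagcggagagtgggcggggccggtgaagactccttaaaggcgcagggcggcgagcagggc
Hspb1: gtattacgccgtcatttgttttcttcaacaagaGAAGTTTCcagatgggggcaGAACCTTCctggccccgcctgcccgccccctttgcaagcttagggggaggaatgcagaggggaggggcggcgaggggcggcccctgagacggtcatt

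In GFP-positive cells most chaperone genes had slightly lower signals than in GFP-negative cells, and Bag3, Hspd1 and Trap1 had the largest negative differences. Differences are GFP-positive minus GFP-negative, on the scale of log2(signal + 16), which understates changes of dim genes. Of 33 tested members 30 had a negative difference, or 90.9%, while 42.3% of all tested genes did. The median difference was -0.22 for the members and 0.07 for all tested genes. Within replicate 1 the members' median was -0.13 with 24 of 33 negative, and within replicate 2 it was -0.32 with 30 of 33 negative. For 23 members the difference was negative within both replicate numbers, or 69.7%, against 26.4% of all tested genes.

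No single chaperone gene passed the test over all genes. With limma and Benjamini-Hochberg adjustment 0 members had an adjusted p under 0.05, the lowest adjusted p being 0.230 (Bag3), while 4 of 12253 genes did, or 0.0326%. At an unadjusted p under 0.05, 3 members were lower (Bag3, Hspd1 and Trap1), where 4.37% of all tested genes were, and 1 member was higher (Hspb1), where 10.2% were. In 17 members, or 51.5%, both GFP-positive signals lay below both GFP-negative signals, against 18.6% of all tested genes. In 2 members, Hspb1 and Bag2, both lay above, against 28.7% of all tested genes.

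GFP-positive replicate 2 was most often the lowest array. It held the lowest of the 4 signals for 22 of 33 members, where it did so for 21.3% of all tested genes. Without it the members' median was -0.12, 24 of 33 were negative, and 0 were lower at an unadjusted p under 0.05, against 3 with all arrays. Added control RNA, which does not come from the cells, also varied between arrays. A Cre control had signals of 13567 and 10971 on the GFP-positive arrays, against 11870 and 13261 on the GFP-negative arrays. A BioB control had 843 and 705 on the GFP-positive arrays, against 701 and 844 on the GFP-negative arrays. The part of such array differences in the members' values was not tested. Scaling the arrays to a common median moved the median of all tested genes by -0.28, to -0.20. That of the members moved to -0.53, so the members stood 0.33 below all genes, against 0.30 as deposited. Under quantile and cyclic loess normalization they stood 0.18 and 0.17 below. At an unadjusted p under 0.05 the split of higher and lower members was 0 and 14 under median scaling and 0 and 4 under quantile normalization, against 1 and 3 as deposited. The share of all tested genes that were lower at that threshold was 13.9% under median scaling and 5.46% under quantile normalization, against 4.37% as deposited.

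The members are mostly bright, and bright genes leaned lower as a whole. Of the 1429 tested genes with a level above 1000, 62.9% had a negative difference, with a median of -0.08. All 17 members in that band were negative, with a median of -0.23, and 10 of the 17 had both GFP-positive signals below both GFP-negative signals, where 33.2% of the band's genes did. In the band from 300 to 1000 the 8 members had a median of -0.20 and all genes one of -0.07. In the band up to 100, where all genes had a median of 0.23, the 4 members were Hspb1, Hsf2, Bag2 and Fkbp4, and their median was 0.42.

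**Figure D1:**
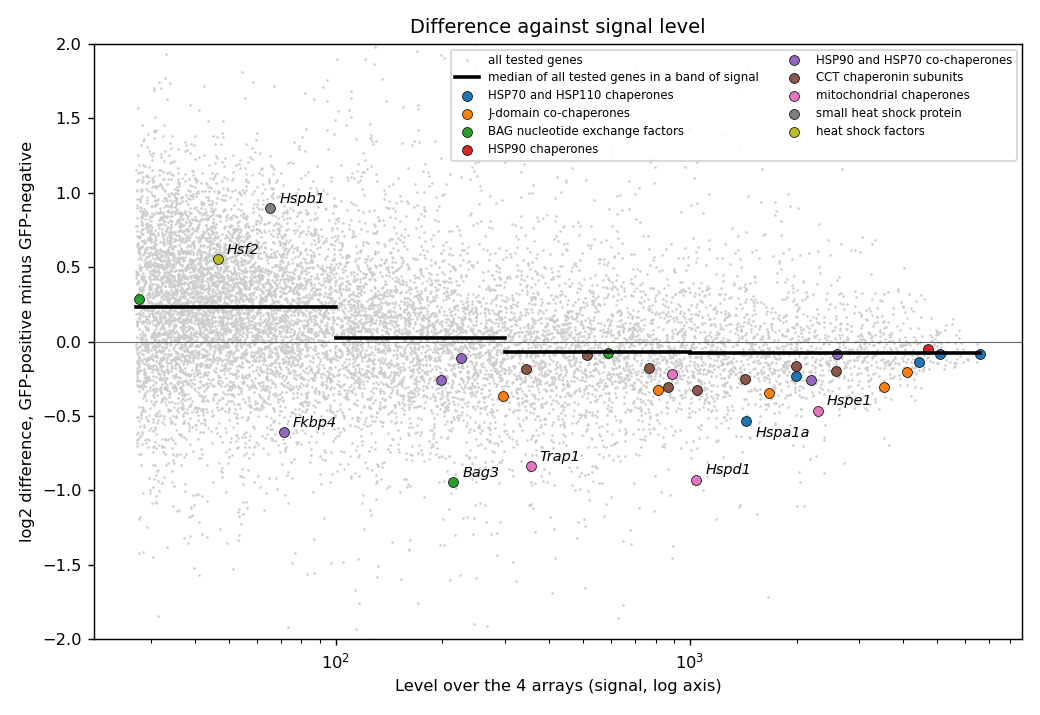
The log2 difference (GFP-positive minus GFP-negative) of each tested gene is plotted against its level over the 4 arrays, on a log axis, with the 33 members coloured by role and black bars for the median of all genes in 4 bands of signal. The vertical axis ends at 2 on either side, which leaves out 39 genes, none of them members. Bag3, Hspd1 and Trap1 have the lowest differences, at -0.95, -0.93 and -0.84, and Hspb1 has the highest, at 0.89.

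The 4 mitochondrial chaperones all had lower signals in GFP-positive cells. In each, both GFP-positive signals were below both GFP-negative signals, and the median difference was -0.65. Of all tested genes 18.6% had such signals, as had 31.8% of those with a level from 300 to 1000 and 33.2% of those above 1000. Hspd1, the HSP60 subunit that forms the folding chamber of the matrix, had signals of 952 and 593 in GFP-positive cells, against 1391 and 1503 in GFP-negative cells. The groups did not overlap, and the GFP-positive replicate 2 array was the lowest. Its log2 difference was -0.93 (95% interval -1.63 to -0.22), a ratio of 0.525, with an unadjusted p of 0.0185 and a limma adjusted p of 0.269. It was -0.54 within replicate 1 and -1.32 within replicate 2, and -0.59 without GFP-positive replicate 2.

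Hspe1, the HSP10 lid of that chamber, had signals of 2131 and 1789 in GFP-positive cells, against 2852 and 2554 in GFP-negative cells. The groups were apart with similar spreads, and the difference was -0.46 (-1.01 to 0.08; unadjusted p = 0.0833, limma adjusted p = 0.402), or -0.42 and -0.51 within the replicate numbers. A second probe set of Hspe1 differed by -0.43. Hspd1 and Hspe1 share the printed stretch. In it the element begins 89 bases before the Hspe1 start and, read on the other strand, 144 bases before the Hspd1 start at chr1:55087932. A second Hspd1 start, at chr1:55088243, lies past the Hspe1 start, and its window held no such element.

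Trap1, the HSP90 of mitochondria, had signals of 262 and 262 in GFP-positive cells, against 612 and 376 in GFP-negative cells. The GFP-positive arrays were nearly equal and the GFP-negative arrays far apart, with a difference of -0.84 (-1.54 to -0.13; unadjusted p = 0.0276, limma adjusted p = 0.298). A second probe set of Trap1 gave -0.24, and without GFP-negative replicate 1 the difference was -0.50. Hspa9, the matrix HSP70 that also pulls proteins in through the inner membrane, had signals of 789 and 857 in GFP-positive cells, against 890 and 1038 in GFP-negative cells, a difference of -0.22 (-0.76 to 0.31). It turned to 0.13 when the log2 values of its probe sets were averaged. A second probe set of Hspa9 gave -0.36, with 592 and 611 in GFP-positive cells, against 774 and 778 in GFP-negative cells. The remaining probe sets gave 0.37, 0.64 and 0.20 and were dim, with mean signals of 61.9, 11.1 and 2.83.

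Among HSP70 and HSP110 chaperones all 5 differences were negative, with a median of -0.14, and none passed at an unadjusted p under 0.05. Hspa1a, the stress-inducible HSP70, had signals of 1406 and 1019 in GFP-positive cells, against 1648 and 1831 in GFP-negative cells. The groups did not overlap, and the difference was -0.53 (-1.15 to 0.08; limma adjusted p = 0.395). It was -0.23 within replicate 1 and -0.84 within replicate 2. Its near-identical copy Hspa1b had signals of 7121 and 5752 in GFP-positive cells, against 6334 and 7282 in GFP-negative cells, so the groups overlapped and the difference was -0.09 (-0.66 to 0.49). The 2 other probe sets of Hspa1b gave -0.47 and -0.51, close to the value of Hspa1a. The 150 bases before the 2 starts match at 149 positions, and probes for either gene may read the other.

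Hspa8, the constitutive HSP70 of the cytosol, differed by -0.14, Hspa4, an HSP110-type exchange factor, by -0.23, and Hsph1, the inducible HSP110, by -0.08. Hspa8 had signals of 4637 and 3847 in GFP-positive cells, against 4703 and 4607 in GFP-negative cells, all but the lowest within a narrow range. One further probe set of Hspa8 stood apart from the other 3. It had signals of 481 and 211 in GFP-positive cells, against 1318 and 859 in GFP-negative cells, a difference of -1.68, while the other probe sets gave -0.14, -0.28 and -0.33. What part of the transcripts that probe set reads was not tested, and it was singled out after its values were seen. A second probe set of Hsph1 gave -0.44.

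**Figure D2:**
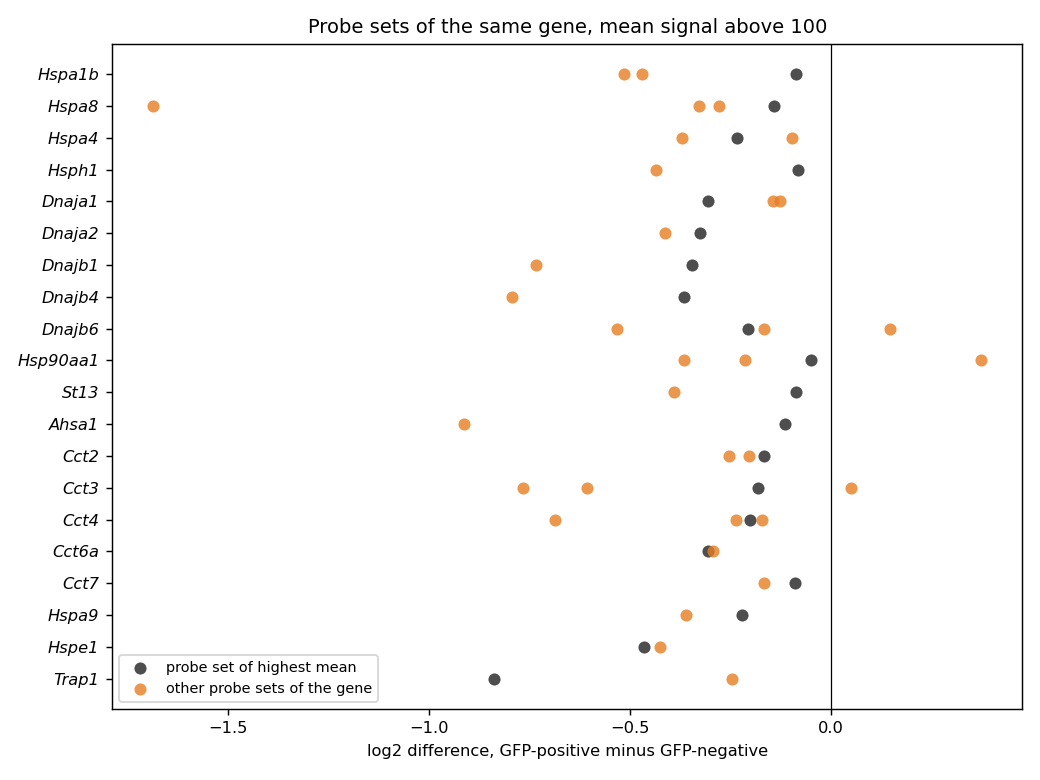
Each point is the log2 difference (GFP-positive minus GFP-negative) of 1 probe set with a mean signal above 100, for the 20 members with more than 1 such probe set, and black points are the probe sets used to represent the gene. Of the 54 probe sets 51 lie below 0, and the lowest is that of Hspa8 at -1.68. Without the limit of 100, 65 of the 80 member probe sets above the filter were negative and 15 positive, and 9 of the 22 members with several had both signs.

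J-domain proteins, which recruit clients to HSP70, had 5 of 5 negative differences with a median of -0.32, and none passed at an unadjusted p under 0.05. Dnaja1, a farnesylated partner of HSP70, had signals of 3629 and 2788 in GFP-positive cells, against 3880 and 3992 in GFP-negative cells, a difference of -0.31 (-0.88 to 0.27). Dnaja2 had signals of 687 and 768 in GFP-positive cells, against 921 and 907 in GFP-negative cells, a difference of -0.32 (-0.84 to 0.19), which turned to 0.01 when its probe sets were averaged. In both genes the groups did not overlap. The other probe sets of Dnaja2 gave -0.41, 0.25 and 0.54, at mean signals of 404, 57.2 and 35.5. Dnajb1, the stress-inducible HSP40, differed by -0.34, with -0.73 in a second probe set, Dnajb4 by -0.36 and Dnajb6, which holds back protein aggregation, by -0.21. Dnajb4 reached 382 on GFP-positive replicate 1 and 175 on GFP-positive replicate 2, against 344 and 335 in GFP-negative cells, and its difference turned to 0.16 without GFP-positive replicate 2. A second probe set of Dnajb4 had signals of 206 and 171 in GFP-positive cells, against 437 and 260 in GFP-negative cells. Those groups did not overlap, and the difference was -0.79 (-1.54 to -0.04; unadjusted p = 0.0416, limma adjusted p = 0.403 over second probe sets).

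The 3 BAG proteins had differences of both signs. Bag3, a stress-inducible cofactor that links HSP70 to selective autophagy, had the lowest difference and the smallest p-value of the whole set. Its signals were 177 and 127 in GFP-positive cells, against 294 and 314 in GFP-negative cells. The groups were well apart, at 0.519 times the GFP-negative level, with a difference of -0.95 (-1.54 to -0.35; unadjusted p = 0.00840, limma adjusted p = 0.230). It was -0.69 within replicate 1 and -1.20 within replicate 2, and ran from -1.24 to -0.73 over 15 alternative settings. Bag1, which binds HSP70 and BCL2, had 650 and 504 in GFP-positive cells, against 528 and 691 in GFP-negative cells, with groups that overlapped and a difference of -0.08. Bag2, an inhibitor of the ubiquitin ligase CHIP, was dim, at 34.6 and 30.2 in GFP-positive cells, against 25.4 and 22.1 in GFP-negative cells. Its difference was 0.28 (-0.24 to 0.80), and it passed the filter only through its GFP-positive signals.

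Hsp90aa1, the inducible cytosolic HSP90, had signals of 5013 and 4271 in GFP-positive cells, against 4541 and 5049 in GFP-negative cells. The groups overlapped and the difference was -0.05 (-0.59 to 0.49), turning to 0.02 under quantile and 0.03 under cyclic loess normalization. The other probe sets of Hsp90aa1 gave -0.36, -0.21, 0.37 and -0.26, at mean signals of 1781, 1361, 128 and 34.4. Of 6 cochaperones that serve HSP90 and HSP70, 5 were measured, and all 5 differences were negative within both replicate numbers, with a median of -0.26. None passed at an unadjusted p under 0.05 without the replicate block. Fkbp4, the immunophilin of steroid receptor complexes, had signals of 47.4 and 63.0 in GFP-positive cells, against 70.9 and 118 in GFP-negative cells, a difference of -0.61 (-1.33 to 0.11), with 0.18 in a second probe set. With the replicate number as a block its unadjusted p was 0.0373 and its limma adjusted p was 0.261, against 0.0829 and 0.402 without the block. Stip1, the adaptor that joins HSP70 to HSP90, had signals of 172 and 189 in GFP-positive cells, against 241 and 199 in GFP-negative cells, a difference of -0.26 (-0.81 to 0.29). The remaining values were -0.26 for Chordc1, -0.11 for Ahsa1, the activator of the HSP90 ATPase, and -0.09 for St13. A second probe set of Ahsa1 gave -0.91, with an unadjusted p of 0.00998 and a limma adjusted p of 0.265 over second probe sets.

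The 8 subunits of the CCT ring had small differences of 1 sign. All 8 differences were negative, from -0.33 to -0.09 with a median of -0.19, and none passed at an unadjusted p under 0.05. In 4 of the 8, Tcp1, Cct2, Cct4 and Cct5, both GFP-positive signals lay below both GFP-negative signals. That held for 18.6% of all tested genes, 31.8% of those with a level from 300 to 1000 and 33.2% of those above 1000. Tcp1, the first subunit of the ring, had signals of 1043 and 836 in GFP-positive cells, against 1198 and 1154 in GFP-negative cells, a difference of -0.33 (-0.88 to 0.23). Cct6a had signals of 889 and 678 in GFP-positive cells, against 874 and 1060 in GFP-negative cells, so the groups overlapped, and the difference was -0.30 (-0.91 to 0.31). Cct8 differed by -0.25, Cct4 by -0.20, Cct5 by -0.19, Cct3 by -0.18, Cct2 by -0.17 and Cct7 by -0.09. The median over the subunits was -0.12 within replicate 1, with 6 of 8 negative, and -0.30 within replicate 2, with 8 of 8 negative.

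Hspb1, the small heat shock protein HSP27 that holds unfolded proteins without ATP, had the highest difference of the set. It had signals of 90.1 and 99.95 in GFP-positive cells, against 30.9 and 59.95 in GFP-negative cells. The groups did not overlap, and the difference was 0.89 (0.17 to 1.62; unadjusted p = 0.0234, limma adjusted p = 0.281). Leaving out GFP-negative replicate 1 took this value to 0.55, and median scaling gave 0.64. The second probe set of Hspb1 read 118 and 63.1 in GFP-positive cells, against 20.1 and 58.4 in GFP-negative cells. Its difference of 0.99 had an interval that included 0 (-0.07 to 2.05). The arrays numbered 1 differed by 1.90 there, and those numbered 2 by only 0.09. For the probe set used, the same comparisons gave 1.18 and 0.61. Epithelial markers, of which all 9 were measured and 7 were above the filter, summed to 1952 and 556 on the GFP-positive arrays, against 520 and 637 on the GFP-negative arrays. Among them Epcam had signals of 246 and 175 in GFP-positive cells, against 72.3 and 42.5 in GFP-negative cells, and Krt18 had 225 and 76.5, against 38.2 and 50.6 in GFP-negative cells. Within replicate 1 all 7 tested epithelial genes were higher in GFP-positive cells, with a median difference of 1.67, while within replicate 2 the median was -0.44 with 4 of 7 negative (Krt8, Krt19, Krt20 and Cdh1). Vil1 and Muc2 were under the filter, and the part of the epithelial markers in the Hspb1 difference was not tested. Hsf2, a heat shock factor with roles in development, had signals of 53.8 and 66.1 in GFP-positive cells, against 54.5 and 21.7 in GFP-negative cells. The groups overlapped, and the difference of 0.55 (-0.29 to 1.40) was -0.01 within replicate 1 and 1.12 within replicate 2.

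**Figure D3:**
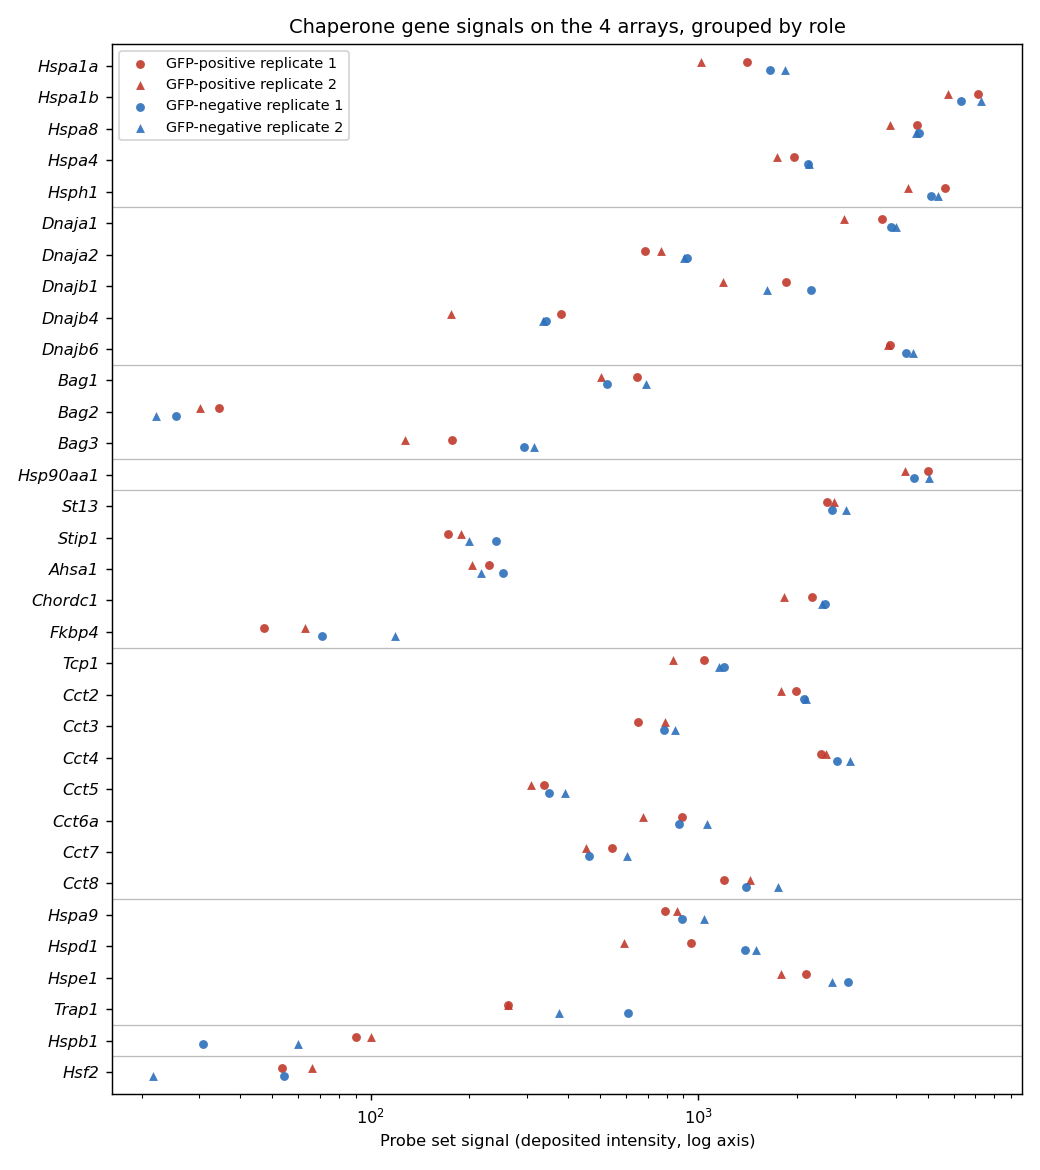
Deposited signals of the 33 tested members on each of the 4 arrays, on a log axis, with GFP-positive arrays in red, GFP-negative arrays in blue, circles for replicate 1 and triangles for replicate 2, and lines between the role groups. The red symbols lie left of both blue ones for Bag3 and for the 4 mitochondrial chaperones, and right of them for Hspb1 and Bag2.

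**Figure D4:**
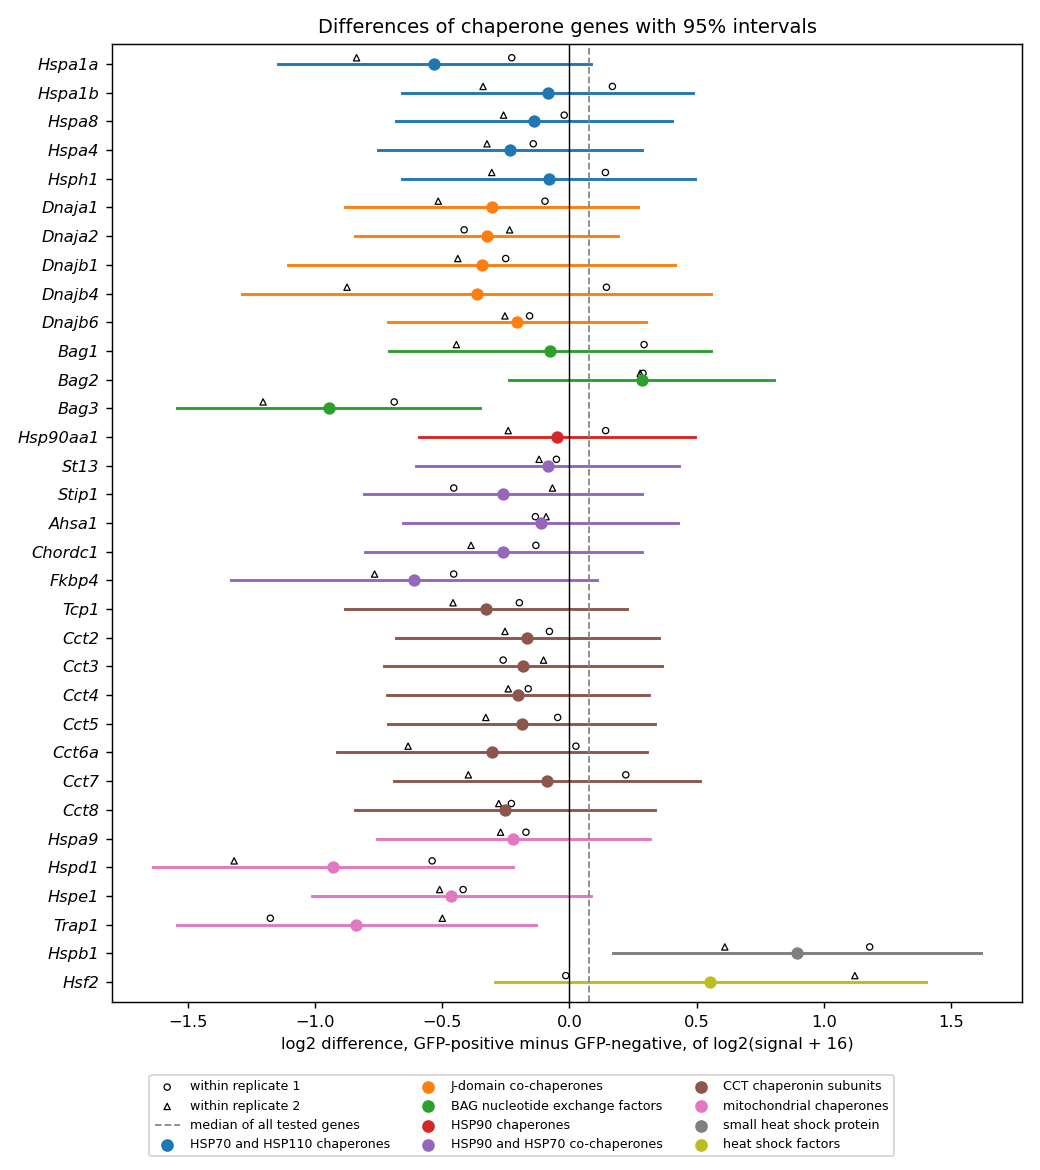
Points are log2 differences (GFP-positive minus GFP-negative) of the 33 members with their 95% limma intervals, coloured by role, and open symbols are the differences within replicate 1 (circles) and replicate 2 (triangles). Intervals that leave out 0 are those of Bag3, Hspd1 and Trap1 on the negative side and Hspb1 on the positive side, and the dashed line is the median of all tested genes, 0.07.

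Heat shock element letters were counted in the members' promoter windows and in all windows. The element of 3 units, which is GAANNTTC followed by NNGAA, or on the other strand TTCNNGAA followed by NNTTC, lay in 7 of 38 member windows (18.4%) and in 198 of 32851 windows in all (0.603%). The windows belonged to Hspd1, Hspe1, Dnajb6, Chordc1 and Hsph1. Hspd1 and Hspe1 share a stretch, and the windows of Dnajb6 overlap each other, as do those of Hsph1, so the windows are not separate elements. Members were chosen by name and role, many as heat shock genes, so their higher share is no result of these data. Either pair alone, including those inside a longer element, lay in 44.7% of member windows and 15.1% of all windows. As a description, the 5 members with the longer element had a median difference of -0.26, and the 23 tested members with a window but without it one of -0.25. With either pair the median over 15 tested members was -0.30, and over 13 without one it was -0.23. Of the 5, Hspd1 differed by -0.93, Hspe1 by -0.46, Chordc1 by -0.26, Dnajb6 by -0.21 and Hsph1 by -0.08. The 23 without the longer element ran from -0.95 to 0.89. Only exact letters in these windows were counted, and the part of the element in the differences was not tested.

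Other genes of the chaperone system had differences of both signs in similar numbers. Of 68 further genes of the pathway 65 were measured and 56 tested, of which 30 had a negative and 26 a positive difference, with a median of -0.08, against -0.22 for the members. Of all tested genes 42.3% had a negative difference, and the median was 0.07. None of the 56 passed over all genes. At an unadjusted p under 0.05, 1 was lower and 3 were higher, where 4.37% and 10.2% of all tested genes were. The lower gene was Ahsa2, a relative of the HSP90 activator Ahsa1, with signals of 440 and 400 in GFP-positive cells, against 707 and 683 in GFP-negative cells, and a difference of -0.71 (-1.22 to -0.19; unadjusted p = 0.0155, limma adjusted p = 0.261). The higher ones were the J-domain gene Dnajb13 at 0.89, the HSP70 family gene Hspa2, known from the testis, at 0.85, and the J-domain gene Dnajb2 at 0.72. Other HSP90 cochaperones had 9 of 10 negative differences with a median of -0.28. Other mitochondrial chaperones and proteases had 3 of 9 negative and a median of 0.14. Grpel1 and Grpel2, the exchange factors of Hspa9, differed by 0.34 and 0.42, and the matrix protease gene Lonp1 by 0.71. Lonp1 was dim, with signals of 62.0 and 74.4 on the GFP-positive arrays, against 23.9 and 50.4 on the GFP-negative arrays. Dnajb13 had 112 and 76.7 on the GFP-positive arrays, against 53.4 and 33.7 on the GFP-negative arrays. All tested genes with a level up to 100 had a median of 0.23.

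Immediate-early genes that tissue digestion is known to induce were measured beside the chaperones. Their 14 genes summed to 24762 and 19579 on the GFP-positive arrays, against 25068 and 25390 on the GFP-negative arrays. GFP-positive replicate 2 was the lowest array here too, holding the lowest signal for 9 of 14 genes. The median difference was -0.20, with 10 of 14 negative, and 1, Btg2 at -0.62, had an unadjusted p under 0.05. Of all tested genes 42.3% had a negative difference and 4.37% were lower at that threshold. Fos had signals of 4409 and 3286 in GFP-positive cells, against 4672 and 4323 in GFP-negative cells. Differences between the replicates of a group were also taken, as replicate 2 minus replicate 1. The immediate-early genes had a median of -0.25 in GFP-positive cells and of -0.11 in GFP-negative cells. The chaperones had -0.17 in GFP-positive cells and 0.08 in GFP-negative cells, where all tested genes had -0.01 and 0.01.

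Proliferation genes had mostly negative differences. Of 18 listed 14 were tested, and 13 had a negative difference, with a median of -0.26. At an unadjusted p under 0.05, 3 were lower, namely Birc5 at -0.95, Mki67 at -0.77 and Rrm2 at -0.64. Among all tested genes 42.3% had a negative difference and 4.37% were lower at that threshold. The 17 measured genes summed to 8130 and 9236 on the GFP-positive arrays, against 10124 and 11987 on the GFP-negative arrays. Myeloid markers, with 10 of 10 measured and 6 above the filter, summed to 245 and 1451 on the GFP-positive arrays, against 144 and 304 on the GFP-negative arrays. Among them C1qb had 26.4 and 700 on the GFP-positive arrays, against 13.7 and 85.0 on the GFP-negative arrays. Csf1r had 35.5 and 164, against 7.73 and 10.7, and passed the filter only through its GFP-positive signals. B cell markers, with 5 of 6 measured and 4 above the filter, summed to 254 and 240 on the GFP-positive arrays, against 114 and 178 on the GFP-negative arrays. All 4 had a positive difference, but within replicate 2 Cd79a (-0.80) and Cd79b (-0.004) were negative. Blnk, at 0.72, had an unadjusted p of 0.0196. It was dim, at 43.1 and 57.3 on the GFP-positive arrays, against 24.4 and 23.7 on the GFP-negative arrays. Blnk thus passed the filter only through its GFP-positive signals. Of all tested genes with a level up to 100, only 29.7% had a negative difference. CD8 markers summed to 64.4 and 84.7 on the GFP-positive arrays, against 76.9 and 61.4 on the GFP-negative arrays. Stromal and endothelial markers summed to 547 and 846 on the GFP-positive arrays, against 390 and 959 on the GFP-negative arrays. The ratio of the 3′ to the 5′ probe set of Actb, a measure of RNA integrity, was 3.91 and 4.90 on the GFP-positive arrays, against 2.59 and 4.60 on the GFP-negative arrays. That of Gapdh was 1.54 and 1.38 on the GFP-positive arrays, against 1.30 and 1.47 on the GFP-negative arrays, so its groups overlapped, as did those of Actb. Genes of these lists that were under the filter are not shown to be expressed. One was the endothelial marker Vwf, at 3.97 and 2.44 on the GFP-positive arrays, against 1.57 and 6.46 on the GFP-negative arrays. The part of all these values in the chaperone differences was not tested.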

How the data were processed

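The authors deposited an intensity on a linear scale for each probe set, from biotin-labelled total RNA on Affymetrix arrays, per the labels. The software that made them is not given in the sources used here, but all arrays have a trimmed mean of 150 (2% left out on either side), so values are set to a common level. Genes were named through the platform annotation, with 34958 of 45101 probe sets carrying 1 symbol. Where a gene had several probe sets, that with the highest average of log2(signal + 16) was used, and genes under the 40th percentile of probe sets, a signal of 27.3, were left out, which kept 12253 of 18194. The test was two-sided, from limma 3.58.1 under R 4.3.3 with no covariate (2 residual and 3.74 prior degrees of freedom), and the same code was tested on simulated data. Means over 2 arrays allow an exact permutation p of at least 0.333, so none is given.

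The members, roles and lists were chosen with earlier results of these data known. All 33 tested members are named, and the 14 of smallest p and at least 1 of each role are given by array, as are a few others chosen after their values were seen. Genes of other lists are named at an unadjusted p under 0.05 or as the brightest, with a few chosen after their values were seen. Motif letters were searched on both strands of RefSeq windows. Alternatives were 14 planned settings of pseudocount, filter, scaling, probe set choice, variance model, replicate block and left-out arrays, with the choice of probe set by mean signal and the second brightest probe set added after seeing the data.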

Additional observations from a re-analysis of the deposited data

How the results depend on the processing

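With all alternatives 0 chaperone genes passed the adjusted threshold, and 497 of 513 single-gene values over 16 settings kept their sign, with 23 genes that never turned. The filter settings, the trended, robust variance and the replicate block leave a gene's difference as it is, so no sign could turn there. Over all genes 4 passed as reported, against 175 with a pseudocount of 64, 50 with the filter at the 60th percentile and 241 with a trended, robust variance. The count was 0 with a pseudocount of 1, no filter, quantile or cyclic loess normalization, the replicate block, either setting added after seeing the data, or any array left out. Lower members at an unadjusted p under 0.05 were 3 as reported (4.37% of all tested genes) and 14 under median scaling (13.9%). They numbered 5 with a pseudocount of 64 (5.85%), with averaged probe sets (4.21%) and with the robust variance (6.24%). Higher members, 1 as reported, numbered 0 under median scaling, quantile, cyclic loess and second probe sets, and 0 to 1 with an array left out. Members below without overlap, 17 as reported, were 30 under median scaling and 20 to 27 with an array left out. The same held for 40.3% of all genes under median scaling and 30.3% to 31.6% with an array left out, against 18.6% as reported. Those above, 2 as reported, were 1 under median, quantile and cyclic loess scaling, the 60th percentile and the choice by mean signal, and 2 to 4 with an array left out (42.3% to 43.5% of all genes, against 28.7% as reported). The median was -0.53 under median scaling, -0.36 over second probe sets and -0.26 to -0.12 with an array left out. Differences turned for Hsp90aa1 under quantile (0.020) and cyclic loess normalization (0.029), Dnaja2 (0.013) and Hspa9 (0.13) with averaged probe sets, and Cct3 (0.052) and Fkbp4 (0.18) on second probe sets. With an array left out the ranges were -0.27 to 0.11 for Bag1, -0.27 to 0.096 for Cct7, -0.89 to 0.16 for Dnajb4, -0.16 to 0.066 for Hsp90aa1, -0.24 to 0.068 for Hspa1b and -0.27 to 0.10 for Hsph1. The cause of these changes was not tested. The labels do not pair the arrays. Sex-linked RNA and an added control RNA split by replicate number, and same-numbered deviations correlated at 0.198 over tested genes. With the replicate block 4 members were lower at an unadjusted p under 0.05, Fkbp4 beside Bag3, Hspd1 and Trap1, where 5.12% of all genes were. The lone array of a reduced group is assumed to vary like the others, and 2 arrays a group limit the precision.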
